A study of Arabidopsis thaliana with 24 samples.

Results

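The transcriptomes of the single mutants vq10 and vq1 of Arabidopsis thaliana were compared with each other, without the wild type, in seedlings kept in normal air (normoxia, 21% oxygen). The comparison used every library with these labels, 3 of vq10 and 3 of vq1, of the 24 in the series. The other 18 came from the wild-type accession Col-0 (Col) and the double mutant vq1vq10 in normoxia and from all 4 genotypes after 4 h at 1% oxygen (hypoxia). Whole seedlings had grown for 14 days on MS medium with 1% sucrose in long days, and on day 15, from 4 h after lights on, both mutants were moved to dim light for 4 h. The series title calls both mutants hypermorphic, which means that more gene activity is expected from them than from the wild type. The labels give neither the kind of mutation nor whether a line descends from 1 plant. They describe the replicates as biological. The question set by this pairing is which genes separate the lines from one another, whichever of them departs from Col.

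VQ1 and VQ10 belong to the plant VQ family, small proteins named after a short motif with a valine and a glutamine. VQ proteins are known as partners of WRKY transcription factors, which bind the W box in promoters and act in defence, senescence and stress responses. The reference sequences show how close these family members are: around the motif, a coding stretch of 75 bases is identical at 65 positions (86.7%), while 15 of its 25 codons are the same. Both are shown in the coding direction from RefSeq TAIR10.1, VQ10 at chr1:29502788-29502862 on the plus strand and VQ1 at chr1:5863822-5863896 on the minus strand. Capitals mark the valine and glutamine codons.
VQ10: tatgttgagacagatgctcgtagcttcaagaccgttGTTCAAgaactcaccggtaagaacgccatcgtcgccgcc
VQ1: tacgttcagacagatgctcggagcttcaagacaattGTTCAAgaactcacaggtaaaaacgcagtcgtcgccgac

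The 6 libraries held 21420744 to 22525736 estimated reads each, and 20110 of 23929 genes had enough reads to be tested. Levels are given in CPM, reads per 1000000 after TMM scaling, or as plain reads. A value after ± beside a mean is the SD of 3 libraries and beside a log2 difference its standard error. All log2 differences are vq10 minus vq1. A gene was called when its Benjamini-Hochberg adjusted p in edgeR was under 0.05. Libraries of vq10 stood apart in different ways. In a principal component analysis of the 6 libraries, vq10 replicate 1 lay at -27.4 on the first component (31.9% of the variance) and the other 5 at -5.10 to 11.1. On the second component (24.6%) the vq10 libraries lay at -15.8 to -0.19 and the vq1 libraries at 4.77 to 18.9. Without vq10 replicate 1, 13 genes were called, all among the 21 described below. In vq10 replicate 3, 5 genes that were nearly silent in the other vq10 libraries were at 9.82 to 17.1% of their mean vq1 level. The called genes among these 5 are given with and without replicate 3.

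Few genes separated the lines. Of 20110 genes 21 were called (0.104%), 13 higher in vq10 (0.0646%) and 8 lower (0.0398%), while 634 genes (3.15%) had an unadjusted p under 0.05. Only 10 of the called genes differed at least 2-fold, 4 higher and 6 lower. The sizes of the 21 differences ran from 0.42 to 4.80 on the log2 scale. Among the called genes, the adjusted p nearest the threshold was 0.0436, and the next gene had 0.0697. In each of the 21 genes the vq10 and vq1 libraries did not overlap, which held for 1906 (9.48%) of all tested genes. Without vq10 replicate 3 edgeR called 17 genes, 15 of them among the 21. It called 13 without vq10 replicate 1 (9 higher and 4 lower), 13 without vq10 replicate 2 (8 and 5) and 13 without vq1 replicate 3 (7 and 6), all 13 among the 21 in each case. In the 6 libraries alone it called 18, of which 11 were among the 21. By chromosome, 11 of the 21 lay on chromosome 1, 1 each on chromosomes 2 and 3, 2 on chromosome 4 and 6 on chromosome 5. The 11 on chromosome 1 include VQ10 and 5 genes close beside it, so they do not describe that chromosome as a whole. The share of all tested genes on each chromosome was not counted.

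The mutated genes were examined first. VQ10 (AT1G78410, TAIR10.1 chr1:29502506-29503938) had 53, 58 and 47 reads in the vq10 libraries, against 4, 5 and 13 in the vq1 libraries. All vq10 libraries thus lay far above all vq1 libraries, at a low level. The means were 2.22 ± 0.23 CPM in vq10 and 0.30 ± 0.19 CPM in vq1, 7.11-fold apart (log2 difference 2.83 ± 0.41, adjusted p = 0.00153). The call held under each of 11 alternative analyses, with adjusted p up to 0.0233.

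VQ1 (AT1G17147, chr1:5863109-5864059) did not separate the lines. It had 76, 126 and 125 reads in the vq10 libraries and 72, 99 and 85 in those labelled vq1. The groups overlapped, with means of 4.61 ± 1.23 CPM in vq10 and 3.60 ± 0.59 CPM in vq1 and a log2 difference of 0.36 (95% interval -0.19 to 0.90, adjusted p = 1). VQ1 transcript thus gives no check of the vq1 label, and "vq1" below names the libraries that carry it. None of the 9 tested genes among the 5 on either side of VQ1 was called (log2 differences -0.20 to 0.12), and none of the 48 tested among the 30 on either side.

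Next to VQ10 the picture was different. A stretch of 9 annotated genes directly to its right, 26.1 kb long (chr1:29504532-29530669), held 5 of the 8 genes that were lower in vq10. Their log2 differences, -4.07 to -4.80, were the 5 lowest of all called genes. None of the tested genes up to the 30th on the left of VQ10 was called, and among 49 tested genes of the 60 around it (chr1:29373803-29598662) the calls were these 5. Outside the stretch the uncalled genes of this window differed by at most 0.50 in size.

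DA2 (AT1G78420), which encodes a RING ubiquitin ligase known to limit seed and organ size is the first gene to the right of VQ10. It had 1, 1 and 121 reads in the vq10 libraries, against 29.1 to 31.7 CPM in the vq1 libraries, where 2135 reads were counted in all. Its transcript was all but missing from vq10 replicates 1 and 2 and present at 17.1% of the vq1 mean in replicate 3. The log2 difference was -4.11 ± 0.64 (adjusted p = 0.00433), and -9.30 (adjusted p = 4.46e-07) without that library. A fit of the 6 libraries alone did not call it (adjusted p = 0.0863), and DESeq2 gave no adjusted p for it.

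RIP4 (AT1G78430), a partner of ROP GTPases, which steer cell polarity, had 0, 2 and 9 reads in the vq10 libraries and 221 reads over the 3 vq1 libraries (3.09 ± 0.65 CPM). The vq10 libraries were all far below the lowest vq1 library. Its log2 difference was -4.27 ± 0.55 (adjusted p = 0.00149) and -6.02 (adjusted p = 0.000248) without vq10 replicate 3.

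AT1G78450 and AT1G78460 lie side by side and both encode SOUL heme-binding proteins. AT1G78460 was the most abundant gene of the stretch, with 3, 3 and 590 reads in the vq10 libraries and 13923 reads over the vq1 libraries (196 ± 13.3 CPM). The log2 difference was -4.54 ± 0.83 (adjusted p = 0.0195) with all libraries and -10.5 (adjusted p = 4.46e-07) without vq10 replicate 3. AT1G78450 had 0, 0 and 4 reads in vq10 and 122 reads in vq1 (log2 difference -4.80 ± 0.81, adjusted p = 0.017, and -8.26 with adjusted p = 0.0229 without vq10 replicate 3). Every vq10 library lay below every vq1 library in both genes, but both calls were fragile to other libraries. AT1G78460 lost its call without vq10 replicate 1 or 2 or without vq1 replicate 2 or 3 (adjusted p 0.0522 to 0.0944). A fit of the 6 libraries alone did not call AT1G78460 (adjusted p = 0.285), and DESeq2 gave no adjusted p for it. AT1G78450 lost its call without vq10 replicate 1 or 2 or vq1 replicate 1 or 2 (adjusted p 0.0557 to 0.152).

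CYP708A3 (AT1G78490), a cytochrome P450 gene, is the last of the stretch, 24.4 kb from VQ10 between the left ends of the genes. It had 2, 8 and 67 reads in the vq10 libraries and 1303 in the vq1 libraries (18.3 ± 2.97 CPM), again with vq10 replicate 3 highest among the vq10 libraries. The log2 difference was -4.07 ± 0.52 (adjusted p = 0.000346), and -6.40 (adjusted p = 7.82e-07) without that replicate.

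The other members of the stretch had few reads anywhere. GA2OX1 (AT1G78440), whose product inactivates gibberellins, had 0 reads in vq10 and 14 in vq1, at least 4.66-fold lower in vq10 against a floor of 3 reads over the group, and was not called (adjusted p = 0.553). AT1G78476 had 2 reads in vq10 and 11 in vq1, a ratio of 0.182 (0.0196 to 0.834, exact 95% interval for counting error). AT1G78480 had 1 read in vq10 and 34 in vq1, a ratio of 0.0295 (0.000725 to 0.176), and was too low to be tested. AT1G78470 had 0 reads in vq10 and 2 in vq1. The first well expressed gene beyond the stretch, SPS1, had 1095 reads in vq10 and 1109 in vq1 (log2 difference -0.02).

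**Figure D1:**
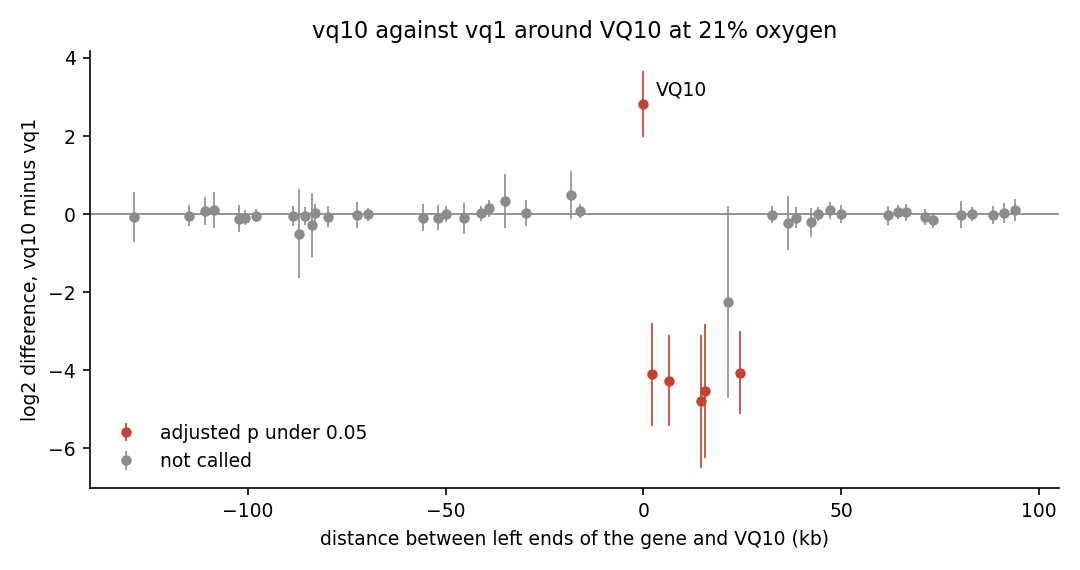
Log2 difference, vq10 minus vq1, of the tested genes around VQ10 against the distance between the left ends of the gene and VQ10 in kb; bars are 95% intervals and red points are called. VQ10 stands above 0, the 5 red points to its right lie between -4.07 and -4.80, and the grey points outside the stretch stay within 0.50 of 0 (GA2OX1, with 0 reads in vq10, is not drawn).

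The vq10 libraries fell into a pattern shared by all 5 called genes of the stretch. Relative to the vq1 mean they stood at 0 to 0.459% in replicate 1, at 0 to 2.74% in replicate 2 and at 9.82 to 17.1% in replicate 3. Under hypoxia, in separate vq10 and vq1 libraries, the same genes stood at 0 to 3.76% in replicate 1, 6.11 to 13.7% in replicate 2 and 3.18 to 17.0% in replicate 3. In the vq1vq10 normoxic libraries DA2, RIP4 and AT1G78450 had 0 reads, AT1G78460 had 7 and CYP708A3 had 36. VQ10 itself did not follow this pattern: replicate 3 of vq10 held 47 reads, near the 53 and 58 of the others. The libraries come from whole seedlings, so fewer plants or cells with these transcripts and less transcript per cell cannot be told apart.

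**Figure D2:**
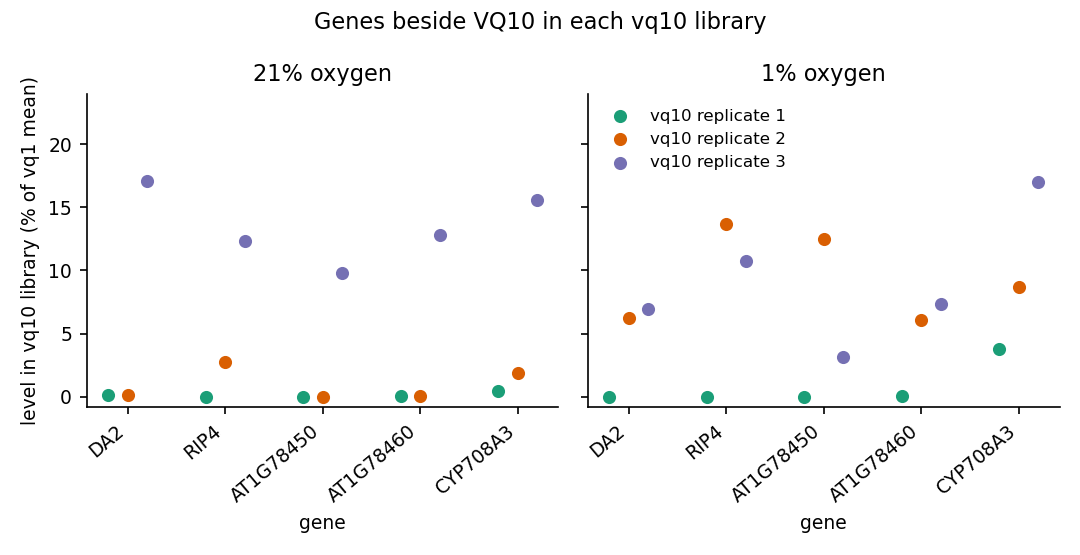
Level of the 5 called genes beside VQ10 in each vq10 library as a percentage of the mean of the 3 vq1 libraries of the same oxygen condition. At 21% oxygen replicate 3 lies at 9.82 to 17.1% and the other replicates at 2.74% or less, while at 1% oxygen replicates 2 and 3 both lie above replicate 1.

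Beyond VQ10 and its neighbours 15 genes were called. The largest difference was in AT5G24240 (chr5:8230916-8234150), which encodes a phosphatidylinositol 4-kinase gamma-like protein of a family related to lipid kinases. It had 138, 184 and 218 reads in the vq10 libraries, against 18, 8 and 16 in the vq1 libraries. The groups were well apart, at 7.61 ± 1.74 CPM in vq10 and 0.59 ± 0.22 CPM in vq1, 12.8-fold higher in vq10 (log2 difference 3.68 ± 0.39, adjusted p = 5.08e-05). It was called in all 11 alternatives. The gene shares 49 bases at one end with AT5G24230 on the other strand.

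AT5G35940 encodes a mannose-binding lectin of the jacalin type. It had 8.85, 5.55 and 5.90 CPM in vq10, against 2.03, 1.201 and 1.501 CPM in vq1. Every vq10 library exceeded every vq1 library (log2 difference 2.099 ± 0.34, adjusted p = 0.00469), but the call ended without vq10 replicate 1 or without vq1 replicate 2 or 3 (adjusted p 0.0541 to 0.0686). AT1G09910 encodes a rhamnogalacturonate lyase, an enzyme class that cleaves pectin. Its levels were 28.2, 35.3 and 31.1 CPM in vq10 and 20.4, 19.4 and 17.5 CPM in vq1 (log2 difference 0.73 ± 0.11, adjusted p = 0.00198). AT5G58210, for a hydroxyproline-rich glycoprotein, reached 11.6 ± 0.27 CPM in vq10 and 7.65 ± 0.51 CPM in vq1 (0.60 ± 0.12, adjusted p = 0.0436) and lost its call without any 1 of the 6 libraries (adjusted p 0.154 to 0.339).

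Genes of membrane proteins went both ways. COR413-PM2 (AT3G50830), for a cold-regulated plasma membrane protein, was the clearest of those that fell outside the stretch beside VQ10. Its levels were 33.7, 36.3 and 37.7 CPM in vq10, against 67.8, 58.0 and 62.8 CPM in vq1. The log2 difference was -0.81 ± 0.09 (adjusted p = 5.08e-05) and stayed called in all 11 alternatives. AT2G31440, for a protein like APH1, which in animals is a subunit of the gamma-secretase protease, had 18.5, 19.2 and 16.6 CPM in vq10 and 10.7, 10.4 and 10.8 CPM in vq1 (0.77 ± 0.12, adjusted p = 0.00358). It overlaps AT2G31450 by 75 bases on the same strand.

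ABCD2 (AT1G54350), an ABC transporter gene, showed the smallest called difference, 53.4 ± 3.04 CPM in vq10 and 40.03 ± 2.71 CPM in vq1 (0.42 ± 0.07, adjusted p = 0.00831). Its call ended without vq10 replicate 2 or 3 or vq1 replicate 3 (adjusted p 0.0596 to 0.119), and a long noncoding RNA on the other strand covers 1823 of its bases. AT5G52790, for a protein with CBS and DUF21 domains, had 4.74, 6.06 and 8.19 CPM in vq10 and 2.68, 2.58 and 2.35 CPM in vq1, where the spread was much smaller (1.32 ± 0.25, adjusted p = 0.0295). It was called neither without vq10 replicate 2 or 3 nor without any 1 vq1 library (adjusted p 0.11 to 0.353).

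A further group of called genes encodes enzymes and a nuclear protein. AT5G25520, for a protein with a SPOC domain and a part like transcription elongation factor S-II, had 42.9, 43.0 and 41.1 CPM in vq10, against 25.2, 24.5 and 28.8 CPM in vq1 (0.69 ± 0.08, adjusted p = 5.26e-05). In CPM the groups were tight and far apart, and the call held in all 11 alternatives, which all use the read counts. In the deposited TPM, which allow for transcript length, the groups of AT5G25520 were nearer. They stood at 18.25 ± 0.295 in vq10 and 13.69 ± 2.101 in vq1, and the cause was not tested. AT5G27410, for an aminotransferase-like enzyme, had 23.2 ± 2.22 CPM in vq10 and 14.3 ± 2.095 CPM in vq1 (0.70 ± 0.10, adjusted p = 0.00153). AT1G73650, annotated as a steroid dehydrogenase of the DUF1295 type, had 13.2 ± 1.33 CPM in vq10 and 7.98 ± 0.78 CPM in vq1 (0.73 ± 0.11, adjusted p = 0.00329). Neither of these 2 calls depended on 1 library, but both ended in a fit of the 6 libraries alone (adjusted p = 0.0855 for AT5G27410 and 0.074 for AT1G73650). Their reads may be shared, since AT5G27410 overlaps AT5G27400 by 2170 bases on the same strand and AT5G25520 overlaps AT5G25530 by 634 bases on the other, and how the counting treated strand is not given in the sources used here.

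The calls of AT4G31310 and AT4G24350 were less stable. AT4G31310, of the AIG2-like family named after a gene induced by avirulent bacteria, had 18.0 ± 1.06 CPM in vq10 and 12.1 ± 1.54 CPM in vq1 (0.57 ± 0.11, adjusted p = 0.0249). It dropped out without any 1 library other than vq1 replicate 2 (adjusted p 0.0596 to 0.28). AT4G24350, for a protein of the phosphorylase superfamily, was lower in vq10, at 5.14 ± 0.28 CPM in vq10 and 7.90 ± 1.01 CPM in vq1 (-0.62 ± 0.12, adjusted p = 0.0436), and dropped out in the same 5 cases (adjusted p 0.127 to 0.477). It shares 330 bases with a noncoding RNA on the other strand.

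Proteins without a known function completed the set. AT1G75945 (chr1:28515245-28515916) had 0.50, 0.08 and 1.15 CPM in vq10, against 5.39, 7.77 and 8.48 CPM in vq1. All vq1 libraries lay far above all vq10 libraries, with a log2 difference of -3.63 ± 0.56 (adjusted p = 0.00433, and 0.0541 without vq10 replicate 1). AT1G55675 had 6.94 ± 0.16 CPM in vq10 and 3.64 ± 0.85 CPM in vq1 (0.93 ± 0.18, adjusted p = 0.0249) and kept its call only where vq1 replicate 1 was the library left out (adjusted p 0.0874 to 0.28 without each of the others).

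The normoxic levels of Col and vq1vq10 place each gene beside the wild type and the double mutant. They are given as levels only, since any test against Col would use the same vq10 and vq1 libraries. On the log2 scale Col lay nearer vq10 in 12 of the 21 genes and nearer vq1 in 9. Among the genes higher in vq10, Col lay close to vq1 in AT5G24240 and VQ10. In AT5G35940 it lay about midway, at 6.77 ± 1.81 CPM in vq10 and 1.58 ± 0.42 CPM in vq1, beside 3.24 ± 0.78 CPM in Col, a near tie that counts among the 9. AT5G24240 had 7.61 ± 1.74 CPM in vq10 and 0.59 ± 0.22 CPM in vq1, beside 0.84 ± 0.31 CPM in Col and 8.01 ± 2.13 CPM in vq1vq10. Col also lay close to vq1 in COR413-PM2 and the 5 genes of the stretch among those lower in vq10, with DA2 at 25.4 ± 1.83 CPM in Col.

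In the other 10 genes higher in vq10 Col lay nearer vq10, with AT5G52790 in between at 6.33 ± 1.75 CPM in vq10 and 2.53 ± 0.16 CPM in vq1, beside 4.27 ± 1.07 CPM in Col. AT5G25520 had 42.4 ± 1.05 CPM in vq10 and 26.2 ± 2.26 CPM in vq1, beside 41.2 ± 1.09 CPM in Col. Likewise, AT2G31440 had 18.1 ± 1.33 CPM in vq10 and 10.6 ± 0.23 CPM in vq1, beside 20.1 ± 2.49 CPM in Col. AT1G75945 was at 0.58 ± 0.53 CPM in vq10 and 7.21 ± 1.62 CPM in vq1, beside 0.35 ± 0.32 CPM in Col and 0 reads in vq1vq10. The double mutant, which carries both labels, lay nearer vq10 in 20 of the 21 genes, including the 10 higher in vq10 for which Col lay nearer vq10. COR413-PM2 was the exception, at 48.3 ± 1.62 CPM in vq1vq10, between 35.9 ± 2.01 CPM in vq10 and 62.9 ± 4.89 CPM in vq1.

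The hypoxic libraries of the same mutants share no library with the normoxic ones and hold the same contrast. There 54 genes were called (0.269%), 34 higher and 20 lower in vq10. All 21 genes had the same sign, and 14 of them were called again, which is 66.7% of the normoxic and 25.9% of the hypoxic calls. Of the 15 outside VQ10 and the stretch 9 were called again. The hypoxic count depended on single libraries, at 251 genes without vq10 replicate 1 and 13 to 18 without each of the other 5, and was 295 in DESeq2. AT5G24240 had 2.21, 4.95 and 6.41 CPM in hypoxic vq10 and 0.21, 0.30 and 0.20 CPM in hypoxic vq1 (log2 difference 4.23 ± 0.49, adjusted p = 0.000288). COR413-PM2 had 36.4, 35.7 and 35.6 CPM in hypoxic vq10 and 63.6, 57.3 and 55.7 CPM in hypoxic vq1 (-0.71 ± 0.09, adjusted p = 0.000509), almost the normoxic levels.

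VQ10 was 1 of the 7 genes not called again. Its difference was 1.27 ± 0.40 under hypoxia (adjusted p = 0.147), against 2.83 ± 0.41 under normoxia. It had 31, 22 and 29 reads in hypoxic vq10 and 10, 17 and 7 in hypoxic vq1, so these groups did not overlap either. The difference between the conditions was 1.57 on the log2 scale (unadjusted p = 0.0139, adjusted p = 0.808). AT4G24350 had the smallest unadjusted p among the 21 (0.00625, adjusted p = 0.808), with a log2 difference of -0.62 under normoxia and -0.12 under hypoxia.

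The change of the vq10 against vq1 difference between the conditions was also tested for each gene. Both edgeR and DESeq2 called 0 of the tested genes (0%), and the smallest adjusted p in edgeR was 0.808. An unadjusted p under 0.05 was found for 1153 of the 20110 genes in edgeR. In DESeq2, which was run without the low-count filter, it was found for 1164 of 23929. VND1, a transcription factor gene of xylem vessel formation, had the smallest unadjusted p (5.09e-05). Its log2 difference was -0.71 under normoxia and 1.60 under hypoxia, at few reads. It had 18, 14 and 16 reads in normoxic vq10 and 21, 30 and 28 in normoxic vq1. Under hypoxia it had 17, 33 and 15 reads in vq10 and 6, 7 and 8 in vq1. NPC6, a phospholipase C gene, followed with -0.34 under normoxia and 0.56 under hypoxia (unadjusted p = 0.000124).

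**Figure D3:**
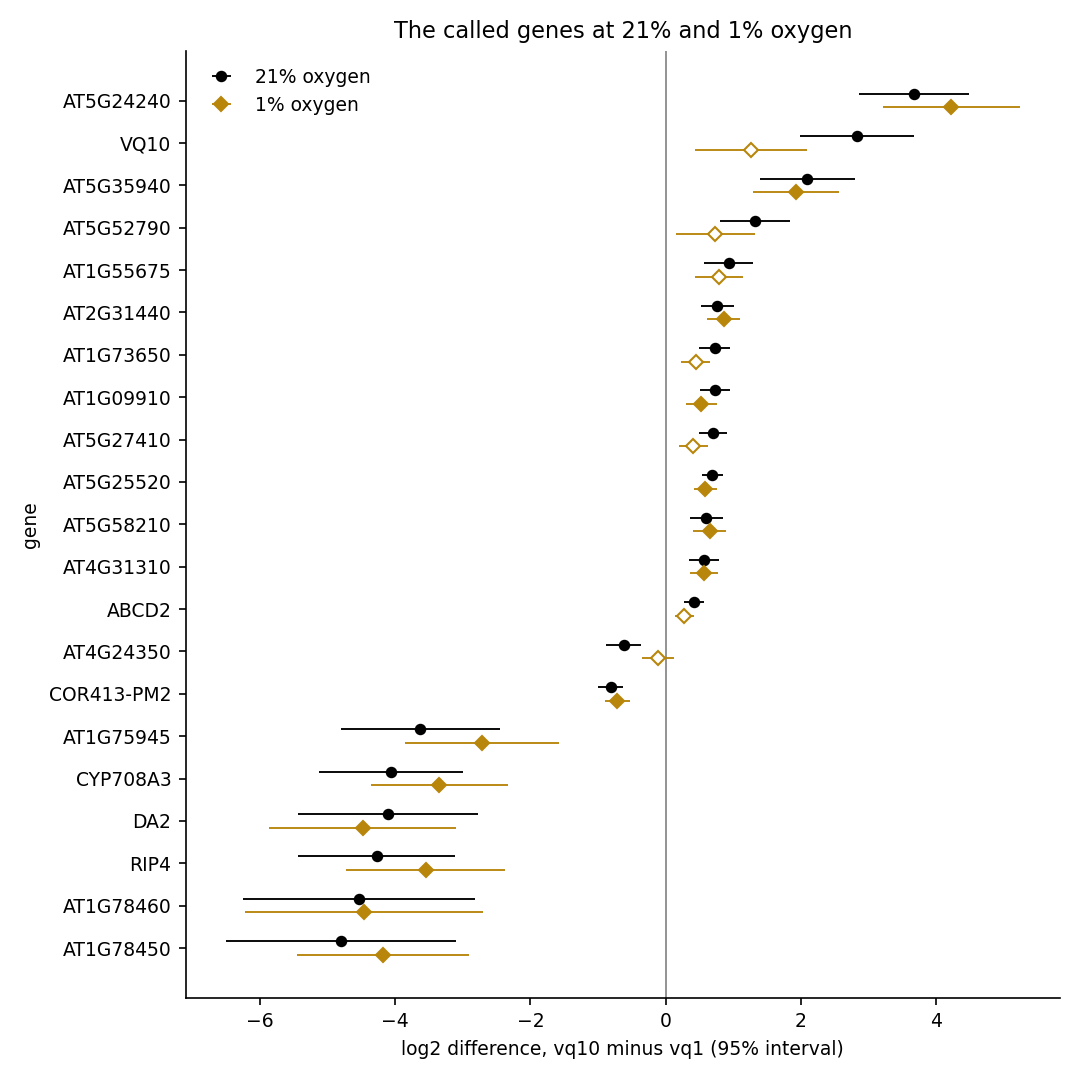
Log2 difference, vq10 minus vq1, of the 21 called genes at 21% oxygen (black circles) and at 1% oxygen (gold diamonds), with 95% intervals; filled symbols are called in that condition and open ones are not. All 21 genes keep their sign, and 14 diamonds are filled.

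Functional groups were examined through 30 gene lists with 502 members, of which 469 were tested. Of these 0 were called in edgeR, and 26 (5.54%) had an unadjusted p under 0.05, beside 3.15% of all genes. DESeq2 called 0 of the 469 as well. Only 0.104% of all tested genes were called in edgeR, so a list without a call says little about its members. The median log2 difference over all tested genes was 0.001, and for the 26 lists with at least 5 tested members the medians ran from -0.53 to 0.425.

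Genes of aliphatic glucosinolates, defence compounds built from methionine, had the highest median, 0.425. All 22 members had a positive difference, from 0.03 to 0.92, 5 had an unadjusted p under 0.05, and 0 were called (smallest adjusted p = 0.4). MAM3, which extends the methionine side chain, had 28.4, 28.2 and 34.2 CPM in vq10, against 11.9, 14.3 and 22.0 CPM in vq1 (0.92 ± 0.24, adjusted p = 0.4). The groups of MAM3 did not overlap. CYP79F2, which starts the core pathway, had 18.7, 13.5 and 19.8 CPM in vq10 and 5.61, 6.91 and 16.4 CPM in vq1 (0.84 ± 0.38, adjusted p = 1), with vq1 replicate 3 inside the range of vq10.

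The summed level of the 22 genes overlapped between the groups, at 605 to 804 CPM in vq10 and 472 to 748 CPM in vq1. Under hypoxia, where 54 of the 20110 tested genes were called in either direction (0.269%), 3 of the 22 were called higher in vq10. These were the transporter gene BAT5 (1.39, adjusted p = 0.00763), the regulator MYB28 (0.64, adjusted p = 0.0491) and BCAT4 (1.28, adjusted p = 0.0499), whose normoxic differences were 0.38, 0.07 and 0.44. The hypoxic count over all genes ran from 13 to 251 with 1 library left out, and whether these 3 calls held was not tested. For BAT5 the difference between the conditions was -1.01 (unadjusted p = 0.00363, adjusted p = 0.808). As in all lists, the members of this pathway are made from the same 6 libraries and are not replicates.

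**Figure D4:**
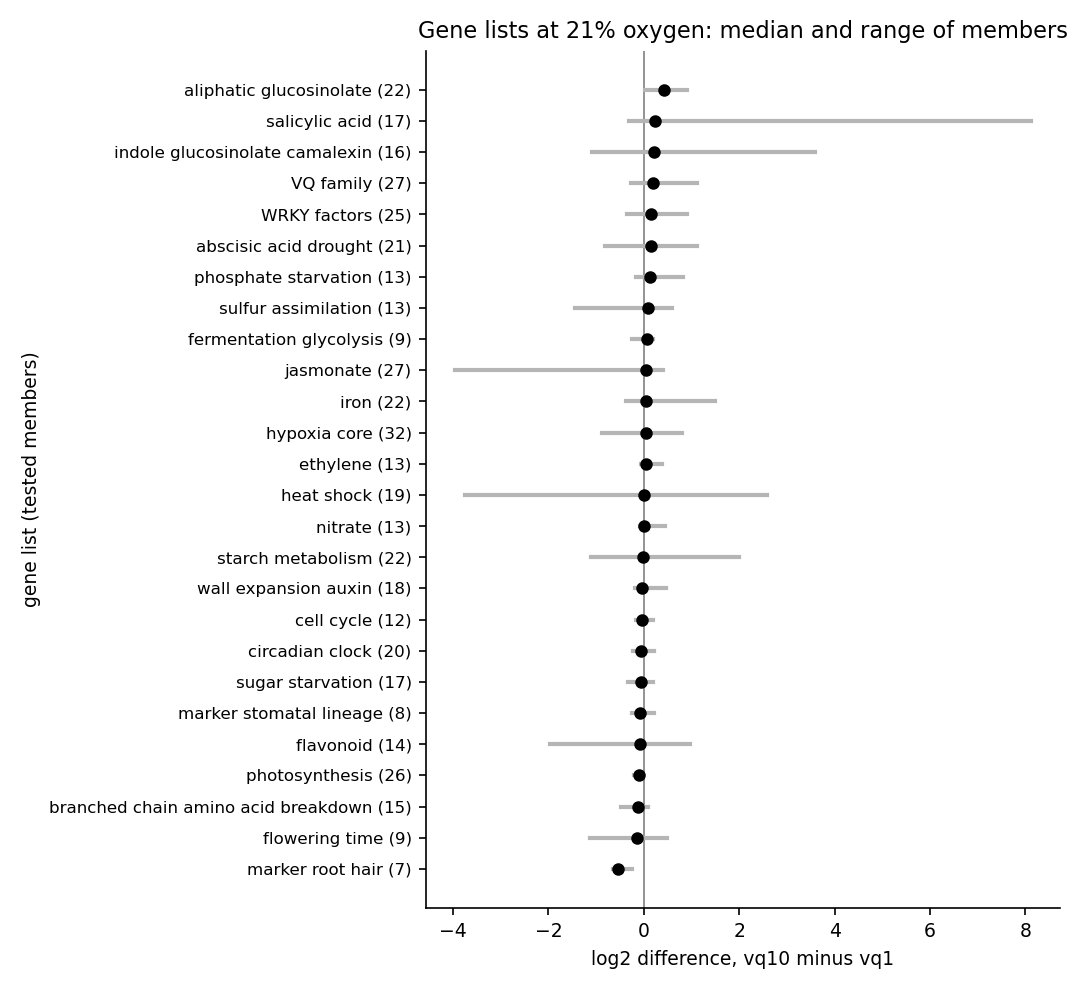
Median (points) and range (bars) of the log2 difference, vq10 minus vq1, over the tested members of each list with at least 5 of them; the number tested is in brackets. The highest median is that of the aliphatic glucosinolate genes, 0.425, and the lowest that of the root hair markers, -0.53.

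The partners of VQ proteins and the family itself showed no called member. With 0.104% of all tested genes called, this says little about them. In the VQ family list, which does not count VQ1 and VQ10, 21 of 27 tested genes had a positive difference (median 0.19). VQ18 (1.12, at 0.46 ± 0.11 CPM in vq10 and 0.21 ± 0.08 CPM in vq1) and VQ7 (0.67) were farthest from 0, each with adjusted p = 1. Of 25 tested WRKY genes 18 were positive (median 0.16). WRKY70, a regulator of salicylic acid defence, had 5.95, 27.7 and 14.1 CPM in vq10 and 5.65, 12.1 and 10.2 CPM in vq1, so that its difference of 0.77 (adjusted p = 1) came with a wide spread in vq10. WRKY54, its close relative, differed by 0.90 (adjusted p = 1).

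The salicylic acid list had 16 of 17 positive members and a median of 0.24, again with 0 called. PR1, the usual marker of this defence, had 0, 104 and 7 reads in vq10 and 0 reads in each vq1 library. PR2, a glucanase gene, had 5, 376 and 0 reads in vq10 and 0, 0 and 4 reads in vq1. Both rested on vq10 replicate 2 and were not called (adjusted p = 1). In the indole glucosinolate and camalexin list 14 of 16 were positive (median 0.23), and the smallest adjusted p was 0.416. That value belongs to another member than CYP71A13, which was farthest from 0 at 3.597 and was not called. CYP71A13 had 14, 60 and 3 reads in vq10 and 2, 3 and 1 reads in vq1. Its groups overlapped, and most of its vq10 reads came from replicate 2.

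Lists of low oxygen and sugar status had medians near 0 and 0 called members. The hypoxia core list had a median of 0.04 with 20 of 32 members positive, the fermentation and glycolysis list 0.07 with 8 of 9, the sugar starvation list -0.07 with 5 of 17 and the starch list -0.01 with 9 of 22. Members ranged from -0.87 to 0.81 in the hypoxia core list (smallest adjusted p = 0.212), and in the starch list from -1.11 for QQS to 1.99 for BAM5, a gene with 0.13 to 0.50 CPM in vq10 and 0 to 0.20 CPM in vq1. The circadian clock genes had a median of -0.06, with a range of -0.22 to 0.21 over 20 members, which is narrow beside the called differences. Nuclear photosynthesis genes had a median of -0.10, and none of the 26 was positive, with RBCS2B farthest from 0 at -0.21.

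The remaining pathway lists had medians of -0.145 to 0.16 and 0 called members. Single members were far from 0 without passing the test. In the sulfur assimilation list (9 of 13 positive) the sulfate transporter gene SULTR1;1 had 0.63, 0.34 and 0.42 CPM in vq10 and 0.95, 1.46 and 1.42 CPM in vq1, groups that did not overlap (-1.45, adjusted p = 0.817). In the iron list (14 of 22 positive) S8H overlapped, at 1.13, 2.67 and 0.76 CPM in vq10 and 0.95, 0.43 and 0.24 CPM in vq1 (1.49, adjusted p = 1). In the jasmonate list (15 of 27 positive) PDF1.2A had 0, 2 and 2 reads in vq10 and 18, 3 and 48 reads in vq1 (-3.96, adjusted p = 0.911). In the flavonoid list (6 of 14 positive) 4 members had an unadjusted p under 0.05 (smallest adjusted p = 0.817). PAP1, the farthest from 0 there, was not 1 of them, with 1, 0 and 1 reads in vq10 and 6, 1 and 2 reads in vq1. In the flowering time list (1 of 9 positive) 2 members had an unadjusted p under 0.05 (smallest adjusted p = 0.817). In the heat shock list (10 of 19 positive) HSP17.6II had 0 reads in every vq10 library and 5, 0 and 0 in vq1, and HSP23.6 had 1, 0 and 1 reads in vq10 and 0 in every vq1 library.

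Markers of tissues that whole seedlings could hold in unequal amounts were set beside these values. The 7 root hair markers all had negative differences, -0.64 to -0.24 with a median of -0.53, and 0 were called. Their summed level was 30.4 to 89.5 CPM in vq10 and 60.7 to 77.5 CPM in vq1, so that the vq10 libraries lay on both sides of vq1, and none of the 7 was at 0 in all libraries. EXPA18, a root hair expansin, had 5.32, 2.50 and 2.29 CPM in vq10 and 5.998, 4.38 and 5.36 CPM in vq1 (-0.64 ± 0.39, adjusted p = 1). Without vq10 replicate 1, which had the most, the median of the list was -0.92. The part of root hair content in the called differences was not tested.

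The other marker lists held 0 called genes. The 8 stomatal lineage markers had a median of -0.07 (sums of 59.7 to 65.6 CPM in vq10 and 63.1 to 71.0 CPM in vq1), and the 3 endodermis markers 0.13 (77.6 to 105.7 and 78.7 to 83.9 CPM in vq10 and vq1). Of 6 seed storage markers 3 could be tested, all negative, at sums of 0.381 to 0.503 CPM in vq10 and 0.215 to 1.38 CPM in vq1, which is almost none, and 1 of the 6 was at 0 in all 6 libraries. The senescence markers summed to 25.1 to 44.7 CPM in vq10 and 27.3 to 36.8 CPM in vq1, with SAG13 at a log2 difference of 2.66 and not called, and 1 of the 5 was at 0 in all 6 libraries. Those of floral organs summed to 2.46 to 5.70 CPM in vq10 and 2.79 to 4.83 CPM in vq1.

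Some genes, chosen after their values were seen because both mutants had less than Col, were not called between the mutants. MRD1 had 0.41 ± 0.13 CPM in vq10 and 0.32 ± 0.21 CPM in vq1, beside 19.1 ± 0.62 CPM in Col (log2 difference 0.33, 95% interval -0.85 to 1.51, adjusted p = 1). Its neighbour HEI10, known from meiotic crossing over, had 2.22 ± 0.15 CPM in vq10 and 1.97 ± 0.46 CPM in vq1 (0.18, -0.25 to 0.60). For QQS, an orphan gene known from starch metabolism, the levels were 0.66 ± 0.21 CPM in vq10 and 1.44 ± 0.90 CPM in vq1. Col had 7.71 ± 0.63 CPM of QQS, and the log2 difference between the mutants was -1.11 (-2.06 to -0.15, adjusted p = 1).

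Since VQ proteins are known to bind WRKY factors, the 250 bases upstream of each gene start were searched for the core of the W box, TTGAC, on either strand. It was found at 10 of the 21 called genes (47.6%) and at 9121 of the 20110 tested genes (45.4%), nearly the same share. AT5G24240, the gene with the largest difference above 0, had 3 matches, and COR413-PM2, CYP708A3 and AT1G78460 had 2 each. VQ10 and AT5G35940 had none in this window. A match describes letters and not a bound site. The windows of the pair with the largest differences above 0 are shown from RefSeq TAIR10.1 in the direction of the gene, AT5G24240 at chr5:8234151-8234400 on the minus strand and VQ10 at chr1:29502256-29502505 on the plus strand, with the motif in capitals.
AT5G24240: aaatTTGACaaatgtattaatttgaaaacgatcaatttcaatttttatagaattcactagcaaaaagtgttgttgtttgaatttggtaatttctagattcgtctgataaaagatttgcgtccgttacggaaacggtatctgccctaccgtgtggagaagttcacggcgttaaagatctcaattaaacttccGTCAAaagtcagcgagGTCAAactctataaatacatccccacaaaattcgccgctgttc
VQ10: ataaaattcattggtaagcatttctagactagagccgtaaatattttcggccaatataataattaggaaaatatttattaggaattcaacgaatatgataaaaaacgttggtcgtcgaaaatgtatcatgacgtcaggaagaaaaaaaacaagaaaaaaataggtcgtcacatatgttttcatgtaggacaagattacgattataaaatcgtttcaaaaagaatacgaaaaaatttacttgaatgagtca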

How the data were processed

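RNA was taken from whole seedlings, and the MGIEasy RNA Library Prep Kit served for the libraries, per the labels. HISAT2 2.0.4, DESeq2 and TAIR10 appear in the submitters' processing notes, but no step is tied to them. Which program counted reads, and whether by strand, is not given in the sources used here. For 23929 genes the files give read counts, TPM and FPKM, per the file headers. The deposited read counts are estimated counts (525 to 581 values per library are not whole) and were rounded. The deposited TPM (sums of 999999 to 1000001) and FPKM entered no test.

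One edgeR 4.0.16 quasi-likelihood model (R 4.3.3, TMM, filterByExpr, a mean for each of 8 groups) was fitted to all 24 libraries, so that the spread is estimated over 8 groups of 3 (biological coefficient of variation 0.127). Contrasts were vq10 minus vq1 in normoxia, in hypoxia, and their difference. The fit was tested on simulated counts, in which only genes with many reads were changed and no library departed from its group. That test therefore does not cover changes in genes with few reads or a library such as vq10 replicate 3. Genes were matched by identifier to TAIR10.1. At this depth 3 reads over a group of 3 libraries correspond to 0.0422 CPM. Fold bounds use this floor, and counting intervals are exact 95% intervals that cover counting error only. No libraries were duplicates (chi-square between replicates at least 6.18 for each degree of freedom).

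Named genes are VQ1 and VQ10, the called genes (up to 15 per direction whose mean log2 CPM reached 1, and up to 4 below it), the 2 farthest members of lists without a call, neighbours of both VQ genes, and the genes with the smallest p for the difference between conditions. Members and lists were chosen with earlier results of these data known. Alternatives were RLE factors, no low-count filter, DESeq2 1.42.0, the 6 libraries alone, a replicate block, and leaving out each library.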

Additional observations from a re-analysis of the deposited data

How the results depend on the processing

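Each of the 21 genes kept its direction in all 11 alternatives. Counts of called genes were 21 with RLE factors, 19 without a low-count filter, 24 with DESeq2, 18 in the 6 libraries alone (8 higher and 10 lower in vq10) and 22 with the replicate block (19 of the 21 among them). Leaving out 1 library gave 13 to 17 called genes, 7 to 10 higher and 4 to 8 lower. Called in every alternative were AT5G24240, VQ10, AT2G31440, AT1G09910, AT5G25520, COR413-PM2, CYP708A3 and RIP4. DESeq2 gave no adjusted p for DA2 and AT1G78460 and called the other 19. Without the filter and with the replicate block AT5G58210 and AT4G24350 were not called. The cause of these changes was not tested.

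Under hypoxia 54 genes became 295 in DESeq2, 107 with the replicate block, and 13 to 251 with 1 library left out. The difference between conditions stayed at 0 called genes in all alternatives run. Replicate numbers were not taken to pair the libraries. Residuals of same-numbered vq10 and vq1 libraries correlated with r of -0.008 to 0.179 across genes, and not every library correlated best with its own number. Single genes did follow the number. ERF5 had 238, 778 and 801 reads in normoxic vq10 replicates 1 to 3 and 188, 611 and 612 in those of vq1. With the replicate block 779 genes had an unadjusted p under 0.05 in edgeR, beside 634 in the main fit. What the numbers stand for was not tested.

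Of the other genes followed through the alternatives, 7, none of them called, changed sign when 1 library was left out, with ranges of -0.101 to 0.777 for ACS6, -0.315 to 0.875 for FUL, -0.039 to 0.244 for CASP1, -0.147 to 0.654 for MUTE, -0.229 to 0.42 for PI, -0.036 to 0.252 for MYB28 and -0.1 to 0.692 for MRD1. HSP17.6II had reads in 1 of the 6 libraries, vq1 replicate 1, and ranged from -4.32 to 0, the value without it. SAG13 was called in the 6 libraries alone (2.66, adjusted p = 0.0432). Counting each list once per alternative, 310 list medians moved by less than the spread between replicates and 19 by more. That spread is the SD between replicates of the mean log2 level of the list, a different measure from the median difference. Depth limits the genes with few reads: 4 of the 21 called genes had an average log2 CPM under 1.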
